A study of Mus musculus with 2 samples.

Results

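The chains of type IV collagen and the laminin chains of the glomerular basement membrane were examined by name: Col4a1, Col4a2, Col4a3, Col4a4, Col4a5 and Col4a6, and Lama5, Lamb1, Lamb2 and Lamc1. These 10 genes, among 43346 gene rows, were chosen by symbol. Polyadenylated RNA was sequenced from whole kidney of 1 adult female C57BL/6J mouse, an inbred laboratory strain, at 10 weeks of age, with no treatment named in the labels. The study holds 1 group of 2 libraries, technical replicates 1 and 2 of 1 biological replicate, here called library 1 and library 2. The labels place the making of technical replicate 2 later, outside the original publication. All values therefore describe 1 kidney sample, an SD is a technical SD over n = 2 libraries, and no p-value can be given for a difference between them.

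Type IV collagen is the network-forming collagen of basement membranes, the thin sheets under epithelia and around vessels. Its alpha chains wind into trimers of fixed composition: alpha1 and alpha2 form the trimer found in nearly all basement membranes, alpha3, alpha4 and alpha5 form the main trimer of the mature glomerular filter, and alpha5 and alpha6 meet in Bowman's capsule and some other epithelial sheets. Laminins are cross-shaped trimers of an alpha, a beta and a gamma chain that polymerise on the cell surface. The mature glomerular filter uses the alpha5, beta2 and gamma1 chains, encoded by Lama5, Lamb2 and Lamc1, while Lamb1 encodes the beta1 chain of the developing glomerulus and of tubular and vascular membranes. Mutations in COL4A3, COL4A4 or COL4A5 cause Alport syndrome, and mutations in LAMB2 cause Pierson syndrome, in humans.

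The collagen IV chains share a repeat in which a glycine recurs in each triplet of residues, so their coding sequence is built on codons that begin with GG. A stretch of 90 bases near the middle of the triple-helical region is shown for 5 of the chains to make this repeat visible and to show how they differ in base composition, a property that moved with the library ratio below. Each was read from the GENCODE M21 transcript on mm10, lies in a single exon, is given 5′ to 3′ on the coding strand, and has the glycine codon that opens each triplet in capitals.
Col4a1, exon 30, chr8:11221335-11221424, minus strand: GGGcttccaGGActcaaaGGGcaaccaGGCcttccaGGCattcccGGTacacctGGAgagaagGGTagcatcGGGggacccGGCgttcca
Col4a2, exon 31, chr8:11433662-11433751, plus strand: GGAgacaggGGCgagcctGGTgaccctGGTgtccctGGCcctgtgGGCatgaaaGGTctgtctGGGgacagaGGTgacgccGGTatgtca
Col4a3, exon 30, chr1:82679094-82679183, plus strand: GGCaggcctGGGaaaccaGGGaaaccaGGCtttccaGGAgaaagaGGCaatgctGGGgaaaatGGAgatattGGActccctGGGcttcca
Col4a4, exon 30, chr1:82489773-82489862, minus strand: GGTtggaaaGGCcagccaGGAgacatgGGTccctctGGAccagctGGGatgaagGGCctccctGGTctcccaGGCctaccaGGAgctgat
Col4a6, exon 28, chrX:141190295-141190384, minus strand: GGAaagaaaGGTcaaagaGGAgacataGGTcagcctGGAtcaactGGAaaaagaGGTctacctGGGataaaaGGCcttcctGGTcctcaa
All 5 stretches hold 10 glycine triplets without a break. The stretch of Col4a2 had the highest GC content at 64.4%, and that of Col4a6 the lowest at 47.8%. Of the 10 glycine codons, 7 ended in G or C in Col4a3, against 2 in Col4a6. That order turned over the whole coding sequence, where 35% of glycine codons in Col4a3 and 41.0% in Col4a6 ended so. A single stretch therefore does not stand for its gene.

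Over the whole coding sequences, glycine made up between 27.5% of codons in Col4a4 and 28.6% in Col4a1, against 7.28% in Lamc1 and 9.39% in Lamb2. The last base of a codon is largely free to vary, and here the chains parted. G or C stood in that position in 51.0% of Col4a2 codons and 44.7% of Col4a1 codons, but in 36.1% of Col4a3 codons and 28.9% of Col4a5 codons. The laminin chains were richer still, at 67.5% in Lama5, 63.3% in Lamc1, 59.3% in Lamb2 and 57.5% in Lamb1. The tail after the stop codon also differed: it was 4708 bases long with 41.2% GC in Col4a4 and 3175 bases with 38.5% GC in Col4a3, against 971 bases with 51.4% GC in Col4a2. Whole transcripts ranged from 50.4% GC in Col4a3 to 60.6% in Col4a2 among the full-length messages, with Col4a1 at 57.7%, Lama5 at 59.9%, Lamb2 at 58.8%, Lamc1 at 53.0% and Lamb1 at 52.5%.

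The collagen IV genes lie in head-to-head pairs in the mouse genome. On mm10, Col4a1 (chr8:11198423-11312826, minus strand) and Col4a2 (chr8:11312805-11449287, plus strand) have annotated first exons that overlap by 22 bases. Col4a4 (chr1:82448423-82586849, minus strand) and Col4a3 (chr1:82586921-82722059, plus strand) have 71 bases between their starts. This Col4a3 start is that of the retained-intron transcript Col4a3-203, and the full-length Col4a3-201 starts 55 bases further downstream. Col4a6 (chrX:141165403-141474076, minus strand) and Col4a5 (chrX:141475385-141689234, plus strand) have 1308 bases between them. The laminin genes stand alone: Lama5 at chr2:180176373-180225859 on the minus strand, Lamb1 at chr12:31265234-31329644 on the plus strand, Lamb2 at chr9:108479736-108490530 on the plus strand and Lamc1 at chr1:153218922-153332786 on the minus strand.

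Because paired genes were compared with each other below, the sequence between the starts is shown for the Col4a4 and Col4a3 pair, and the stretch just upstream of each start for the Col4a6 and Col4a5 pair. They are from RefSeq on GRCm38.p6, whose promoter table held 8 of the 10 genes, and are written 5′ to 3′ on the strand of the gene named. Capitals mark any GC box found on either strand, with the letters GGGCGG. They also mark the CCAAT box, which is searched by the letters of its name, and the TATA box, searched as TATAAA.
Col4a4 (chr1:82586850-82586920, all 71 bases between both starts): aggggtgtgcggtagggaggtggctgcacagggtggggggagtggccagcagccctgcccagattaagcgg
Col4a6 (chrX:141474077-141474326): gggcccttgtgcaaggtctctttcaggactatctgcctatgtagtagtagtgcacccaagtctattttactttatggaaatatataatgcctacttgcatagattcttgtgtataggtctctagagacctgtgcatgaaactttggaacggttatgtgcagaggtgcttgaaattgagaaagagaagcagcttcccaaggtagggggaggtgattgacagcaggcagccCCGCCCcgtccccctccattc
Col4a5 (chrX:141475169-141475384): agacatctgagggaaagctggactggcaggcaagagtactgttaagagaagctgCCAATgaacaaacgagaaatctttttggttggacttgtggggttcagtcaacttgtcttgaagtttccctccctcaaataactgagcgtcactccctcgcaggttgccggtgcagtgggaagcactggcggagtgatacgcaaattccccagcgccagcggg
The stretch shared by Col4a4 and Col4a3 had 69.0% GC and held none of the 3 motifs. Of 32841 upstream windows of the same length in the table, 20.7% held a GC box, 13.3% a CCAAT box and 4.42% a TATA box, and their median GC content was 54.9%. The 55 bases from the annotated Col4a3 start to the start of its full-length transcript were not searched. The 250 bases upstream of Col4a6 had 47.6% GC and 1 GC box, a motif in 32.7% of windows of that length. The 216 bases upstream of Col4a5 had 52.3% GC and 1 CCAAT box, a motif in 30.8% of windows of that length. A match describes these letters only and marks no proven site.

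Expected counts, the estimated reads per gene, summed to 28263730 in library 1 and 20720537 in library 2. Levels are in TPM, a share of the library corrected for transcript length. Mitochondrial genes and 11 nuclear copies of them made up 74.5% of all TPM in library 1 against 36.5% in library 2, which lowers the TPM of every other gene in library 1 relative to library 2. At TPM 1 or more were 9532 genes in library 1 and 13223 in library 2. All listed markers of podocytes (5), endothelium (5), proximal tubule (5), thick ascending limb (2) and parietal epithelium (2) were at TPM 1 or more in both libraries. So were 4 of 5 mesangial and mural markers, 3 of 4 of distal tubule and collecting duct, 3 of 4 of fibroblasts and 1 of 2 of smooth muscle, and each of the rest fell short in library 1 only. In whole tissue, fewer cells of a type and less RNA per cell cannot be told apart.

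Of the 10 chains, 7 reached TPM 1 in library 1, 9 in library 2 and 7 in both. Col4a3 was the most abundant chain and Col4a6 the least abundant in both libraries. By mean level the order was Col4a3, Lamb1, Col4a1, Col4a4, Col4a2, Lama5, Col4a5, Lamb2, Lamc1 and Col4a6. Each gap between neighbours from Col4a3 down to Lamc1 was smaller than the larger SD of the pair. All 10 chains had the higher TPM in library 2, a shift that enters each SD, so the order within each library is given below.

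**Figure D1:**
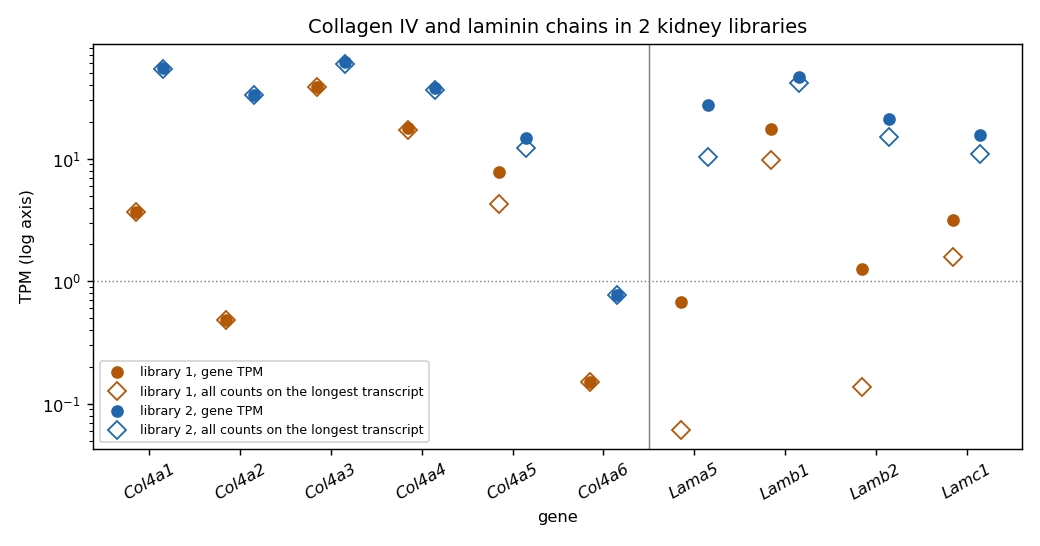
TPM (log axis) of the 10 chains in library 1 (orange) and library 2 (blue), with filled circles for the deposited gene TPM, open diamonds for the level with all counts of a gene placed on its longest transcript, and a dotted line at TPM 1. Col4a3 lies above Col4a4 in both libraries, while Col4a2 and Lama5 lie under TPM 1 in library 1 and at 33.3 and 27.2 TPM in library 2.

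Col4a3 and Col4a4, the alpha3 and alpha4 chains that in the glomerulus come from podocytes, were well measured in both libraries. Col4a3 stood at 38.4 TPM in library 1 and at 61.2 TPM in library 2, from 9887 and 8224 expected counts (mean 49.8 ± 16.1, SD, n = 2). Col4a4 had 17.7 and 38.1 TPM, from 5302 and 5939 counts (mean 27.9 ± 14.5, SD, n = 2). Among all genes ranked by TPM, Col4a3 stood at place 1193 in library 1 and 1780 in library 2, and Col4a4 at place 2460 and 2771. With mitochondrial genes and their copies left out of the sum, Col4a3 had 150.6 and 96.3 TPM and Col4a4 had 69.4 and 60.1 TPM, so the library with the higher level turned for both.

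Col4a5, the X-linked alpha5 chain that joins them, was lower at 7.85 and 14.7 TPM, from 830 and 1270 counts (mean 11.3 ± 4.82, SD, n = 2). Without mitochondrial genes and copies its direction turned as well, to 30.8 and 23.1 TPM. Col4a6, the alpha6 chain encoded beside it, had 0.15 and 0.77 TPM from 30 and 82 counts, the lowest level of the 10 chains in each library. Its deposited credibility interval reached from 0.120 to 0.328 TPM in library 1 and from 0.629 to 1.10 TPM in library 2. Detection of Col4a6 rested on few reads in both.

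Col4a1 and Col4a2, the ubiquitous chains, differed far more between the libraries. Col4a1 stood at 3.67 TPM in library 1 and at 54.7 TPM in library 2, from 727 and 5762 counts (mean 29.2 ± 36.1, SD, n = 2). Col4a2 had 0.48 and 33.3 TPM, from 93 and 3434 counts (mean 16.9 ± 23.2, SD, n = 2). For both genes the technical SD exceeded the mean. Col4a1 moved from place 6365 to place 1988 among all genes, and Col4a2 from place 11121 to place 3096.

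Like the collagen IV chains, the 4 laminin chains had the higher TPM in library 2, and they kept this direction without mitochondrial genes and copies. Lama5, the alpha5 chain, stood at 0.68 TPM in library 1 and at 27.2 TPM in library 2, from 21 and 1917 counts (mean 13.9 ± 18.8, SD, n = 2). Lamb2, the beta2 chain, had 1.27 and 21.2 TPM, from 23 and 1341 counts (mean 11.2 ± 14.1, SD, n = 2). These are the chains of the mature glomerular filter, and each rested on under 30 counts in library 1, fewer than any other chain here.
Lamb1, the beta1 chain, had 17.3 and 46.7 TPM, from 1687 and 3829 counts (mean 32.0 ± 20.8, SD, n = 2). Lamc1, the gamma1 chain that nearly all laminin trimers of the tissue share, had 3.15 and 15.5 TPM, from 365 and 1345 counts (mean 9.34 ± 8.75, SD, n = 2). Lamb1 was the most abundant laminin chain in each library.

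Within each library, the deposited credibility intervals of neighbouring genes were set beside the order. They come from a separate posterior estimate, and the TPM of Col4a3 in both libraries and of Col4a1 and Col4a4 in library 2 lay just above its own interval, so they are a rough guide. In library 1, Col4a3 stood above Col4a4 and Lamb1, whose intervals met, and Col4a5 came next. The intervals of Col4a1, Lamc1, Lamb2, Lama5 and Col4a2 then met each other in a chain, and Col4a6 lay below. In library 2 the order was Col4a3, Col4a1, Lamb1, Col4a4 and Col4a2, with no neighbouring intervals that met. Lama5 and Lamb2 followed with intervals that met, then Lamc1 and Col4a5 with intervals that met, and Col4a6 last.

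Some of the length-corrected levels rested on how reads were divided among transcripts. Over 99% of the counts of Col4a1, Col4a2, Col4a3, Col4a4 and Col4a6 fell on the longest transcript in both libraries. For Col4a5 this share was 6.40% in library 1 and 73.5% in library 2. It was 47.9% and 95% for Lama5, 41.3% and 97.6% for Lamb2, 58.2% and 93.1% for Lamb1, and 85.6% and 91.6% for Lamc1. All 5 genes had the lower share in library 1.

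**Figure D2:**
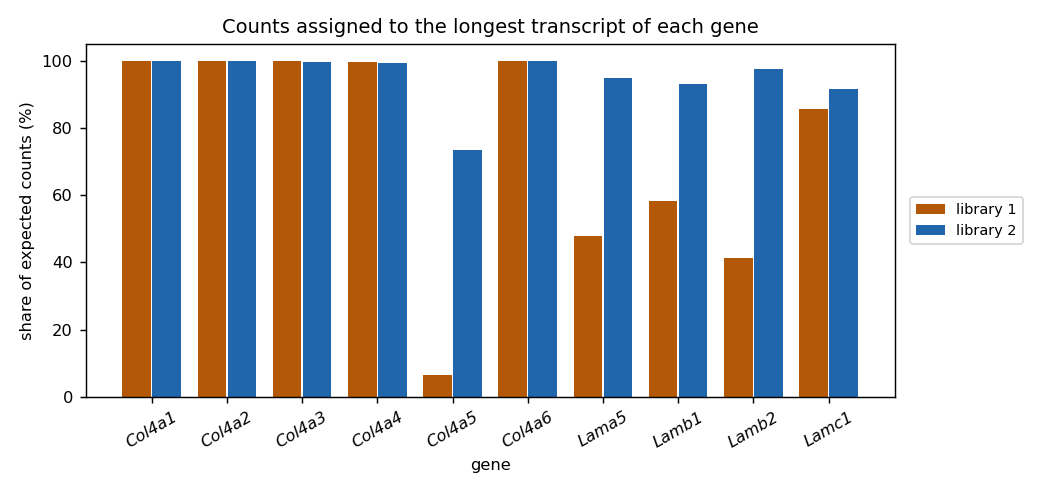
Share of each gene's expected counts, in percent, assigned to its longest transcript in library 1 (orange bars) and library 2 (blue bars). 5 collagen IV genes are near 100 in both libraries, and Col4a5 stands at 6.40% in library 1 against 73.5% in library 2.

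For Col4a5 the other transcript was Col4a5-204, 3511 bases long, which starts 154739 bases downstream of the full-length start and has the same 3′ end. In deposited isoform share, the percent of a gene's TPM, Col4a5-204 held 96.6% in library 1 and 35.7% in library 2, and the full-length Col4a5-202 of 6536 bases held 3.45% and 60.9%. The GC content of Col4a5-204 was 47.7% and that of Col4a5-202 was 51.5%. Both end at the same place, so they differ in the 5′ part of the message.
Lama5-203, a 734-base transcript at the 3′ end, held 95.8% of Lama5 TPM in library 1 on 10.9 expected counts, against 15.5% in library 2. Lama5-201, the full-length message of 11388 bases, held 4.25% and 36.3%. In library 2 the short transcripts Lama5-202 and Lama5-204 held 30.3% and 17.9%, and in library 1 both were listed at 0. Short transcripts weigh heavily in TPM, since few reads on a short length give a high level.

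Lamb2-205, a retained-intron transcript of 578 bases, held 72.8% of Lamb2 TPM in library 1 on 11.0 counts and 8.51% in library 2. The 473-base Lamb2-207 held 22.8% and 10.9%, and the full-length Lamb2-201 held 4.46% and 68.9%. For Lamb1, a 2318-base transcript that the GENCODE M21 reference used here does not list held 60.8% and 13.3%, and the full-length Lamb1-201 held 32.8% and 82.8%. Lamc1-201, the full-length message, held 43.2% and 64.9%, and the 1447-base 3′ transcript Lamc1-204 held 33.8% and 35.2%. The retained-intron transcripts Lamc1-202 and Lamc1-203 held 12.1% and 10.9% in library 1 and were listed at 0 in library 2. In each of Col4a5, Lama5, Lamb1, Lamb2 and Lamc1, the full-length message had the larger share in library 2.

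Placing all counts of a gene on its longest transcript gives a level that does not depend on this division. This scale was chosen after the isoform shares had been seen. On it Lama5 stood at 0.0607 TPM in library 1 and at 10.4 TPM in library 2, and Lamb2 had 0.137 and 15 TPM. The deposited gene TPM of Lama5 was thus 11.2 times this level in library 1 and 2.62 times in library 2, and that of Lamb2 9.27 and 1.42 times. Lamb1 had 9.77 and 41.6 TPM, Lamc1 1.59 and 11.0 TPM, and Col4a5 4.24 and 12.2 TPM. Under this scale Lama5 was the least abundant chain in library 1, below Col4a6, which stayed the lowest in library 2.

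The balance of chains within the collagen IV trimers is set out per length. The ratio of Col4a4 to Col4a3 was 0.461 in library 1 and 0.624 in library 2 (mean 0.542 ± 0.115, SD, n = 2). The ratio of Col4a5 to Col4a3 was 0.205 and 0.240, or 0.111 and 0.204 with all counts on the longest transcript. Within the trimer of the glomerular filter, alpha3 message was thus above alpha4, and alpha4 above alpha5, in both libraries. By contrast the ratio of Col4a2 to Col4a1 was 0.131 in library 1 and 0.609 in library 2, and that of Col4a3 to Col4a1 was 10.4 and 1.12. The ratio of Col4a6 to Col4a5 was 0.0191 and 0.0525, so alpha6 message was a small part of alpha5 message in both. For the head-to-head pairs, the minor partner was the same gene in each library: Col4a2, Col4a4 and Col4a6.

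Col4a3, Col4a4 and Col4a5 together made up 93.7% of collagen IV TPM in library 1 and 56.2% in library 2, of summed levels of 68.2 and 203 TPM. Col4a1 and Col4a2 made up 6.09% and 43.4%. Col4a3 alone held 56.2% and 30.2%. By TPM, Col4a3, Col4a4 and Col4a5 thus formed the greater part of collagen IV message in both libraries, by a margin that differed widely. The RNA is from whole kidney, so the part from glomeruli was not measured. In full-length messages, GC content was 57.7% in Col4a1 and 60.6% in Col4a2. It was 50.4% in Col4a3, 51.1% in Col4a4 and 51.5% in Col4a5. GC content moved with the library ratio, as set out below, and whether it set these shares was not tested.

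**Figure D3:**
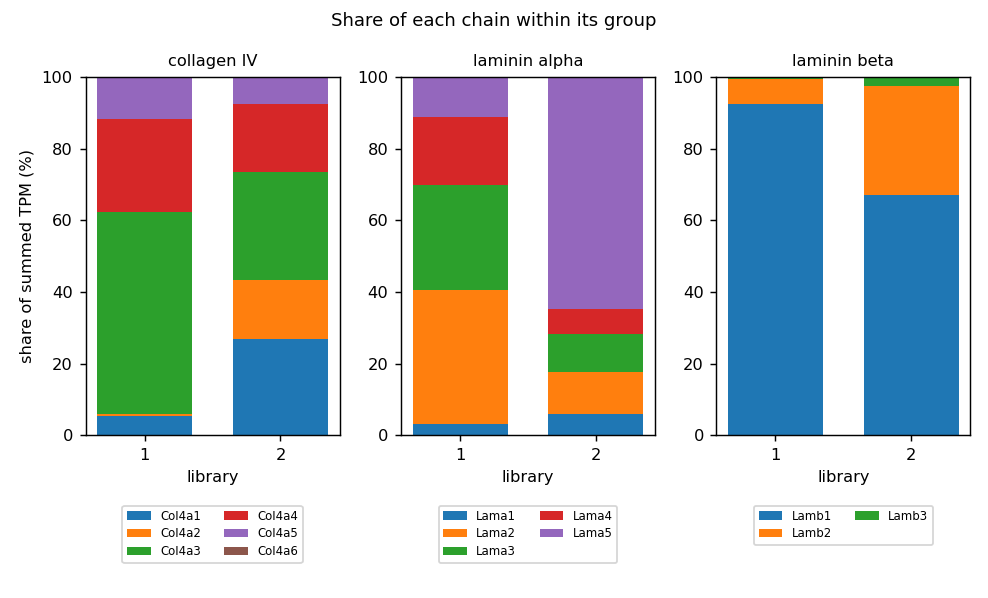
Share of summed TPM, in percent, of each chain among the 6 collagen IV genes and among the laminin alpha and beta genes, with 1 stacked bar for each library. Col4a1 and Col4a2 fill 6.09% of the collagen IV bar in library 1 and 43.4% in library 2, and Lama5 fills 11.1% and 64.7% of the alpha bar.

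Among laminin alpha genes, Lama5 held 11.1% of TPM in library 1 and 64.7% in library 2, or 1.30% and 44.8% with all counts on the longest transcript. The other alpha chains had low levels: Lama1 had 0.19 and 2.52 TPM, Lama2 2.30 and 4.95 TPM, Lama3 1.80 and 4.40 TPM, and Lama4, a chain of vessel walls, 1.17 and 2.97 TPM. The leading alpha chain was Lama2 in library 1 and Lama5 in library 2. Lamb1 held 92.6% of laminin beta TPM in library 1 and 67.1% in library 2, and Lamb2 held 6.78% and 30.4%. Lamb3, the beta chain of epidermal-type laminin, had 0.12 and 1.72 TPM.
Lamc3, a gamma chain beside Lamc1, had 0.22 and 5.55 TPM. Across chain classes, the ratio of Lamb2 to Lamb1 was 0.0732 and 0.454, and that of Lama5 to Lamc1 was 0.216 and 1.75. With all counts on the longest transcript, these ratios were 0.0140 and 0.360, and 0.0382 and 0.946. The ratio of Lamb1 to Lamc1 was 5.5 and 3.01, above 1 in both.

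The libraries were then compared on counts, rounded and scaled by TMM, a trimmed mean of ratios over genes with at least 10 counts. The value is the log2 ratio of library 2 over library 1, with a 95% exact interval for counting error only, and a 2-fold ratio counted as a call. It compares 2 libraries of 1 sample and no conditions. Of all 15553 genes compared, 36.9% passed this limit as higher in library 2 and 26.1% as higher in library 1. Of the 10 chains, 5 were higher in library 2, namely Lama5, Lamb2, Col4a2, Col4a1 and Lamc1, 0 were higher in library 1, and 5 were not called. The median ratio of the chains was 1.20, against 0.12 over all genes.

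Lama5 had the highest ratio of the 10 chains at 6.03 (interval 5.44 to 6.75), a 65.3-fold difference. Lamb2 followed at 5.38 (4.82 to 6.07) and Col4a2 at 4.74 (4.45 to 5.06). Col4a1 stood at 2.53 (2.42 to 2.64) and Lamc1 at 1.42 (1.26 to 1.60). These are differences between technical replicates of the same tissue, far outside counting error.
Col4a6 at 0.98 (0.38 to 1.65), Lamb1 at 0.73 (0.64 to 0.81), Col4a5 at 0.16 (0.03 to 0.29), Col4a4 at -0.29 (-0.35 to -0.24) and Col4a3 at -0.72 (-0.76 to -0.68) stayed under the 2-fold limit. When library totals replaced TMM, the median of all genes moved by 0.90, and Col4a3 and Col4a4 changed sign to 0.18 and 0.61. With library totals 8 of the 10 chains were called higher in library 2, where 50.3% of all genes were, and 0 in library 1, where 5.45% were.

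GC content moved with the ratio. Across the 10 chains Spearman's rho between log2 ratio and GC content was 0.915 and Pearson's r was 0.922. Across 11508 genes with at least 100 counts rho was 0.918. Genes are not independent replicates, and all points come from the same pair of libraries, so these are descriptions. The 4 chains with the highest GC content, Col4a2, Lama5, Lamb2 and Col4a1, were the 4 with the highest ratios, and Col4a3 and Col4a4, at 50.4% and 51.1% GC, had the lowest ratios. Col4a5 departed from this order at 47.7% GC, the value of its short transcript Col4a5-204, with a ratio above both. The full-length Col4a5-202 has 51.5% GC, and with that value Col4a5 would be out of order with neither Col4a3 nor Col4a4. Genes of 50 to 52% GC had a median ratio of 0.54, and genes of 58 to 60% GC had a median of 4.49.

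**Figure D4:**
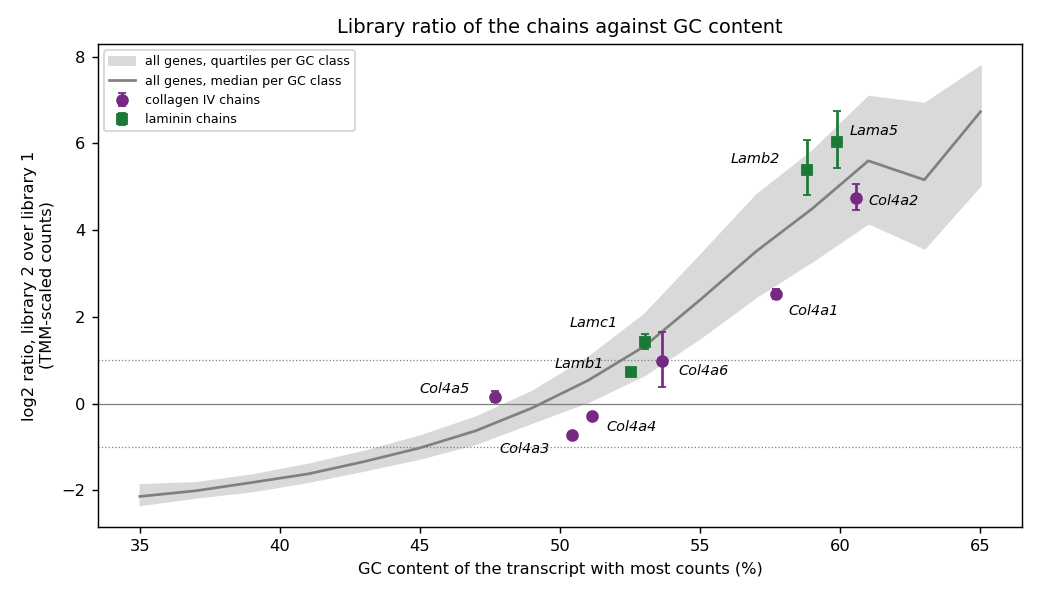
Log2 ratio of library 2 over library 1 on TMM-scaled counts against the GC content (%) of the transcript with most counts, for the collagen IV chains (purple circles) and laminin chains (green squares) with 95% counting intervals; the grey line and band are the median and quartiles of all genes in 2% classes, and dotted lines mark 2-fold. Lama5 and Lamb2 lie above the median of genes of like GC content and Col4a1 and Col4a3 below it.

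With the GC trend of all genes removed, the spread of the chains' log2 ratios fell from an SD of 2.46 to 0.86. On that scale 1 chain was called higher in library 2, Lama5 at 1.15, where 14.5% of 14801 genes were called. Col4a1 at -1.31 and Col4a3 at -1.05 were called higher in library 1, where 12.5% of genes were called. Lamb2 stood at 1.00, just under the limit, and Lamc1 at 0.10, Col4a2 at -0.43, Lamb1 at -0.38, Col4a6 at -0.62 and Col4a4 at -0.87. Col4a5 stood at 0.59 with the GC content of Col4a5-204. In library 2 the full-length Col4a5-202, at 51.5% GC, held more counts than Col4a5-204, 934 against 286. A value with the GC content of Col4a5-202 was not computed. At the 51.1% GC of Col4a4 the trend was 0.58, above the Col4a5 ratio of 0.16. Whether GC content, the mitochondrial share or another property of the libraries set these ratios was not tested.

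Col4a1 and Col4a2, which share a trimer and a start region, thus differed from each other between libraries (2.53 and 4.74), with GC contents of 57.7% and 60.6%. Col4a3 and Col4a4, at nearly the same GC content, lay close together (-0.72 and -0.29). Lamb1 and Lamb2, the alternative beta chains, lay far apart (0.73 and 5.38), at 52.5% and 58.8% GC.

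The surrounding basement membrane genes were taken from 6 lists of 80 genes, of which 79 had a row and 76 had enough counts to compare. Of the 76, 36 were higher in library 2, 12 were higher in library 1 and 28 were not called, against 36.9% and 26.1% of all genes in each direction. Their median log2 ratio was 0.79, against 0.12 over all genes. Of the other laminin alpha chains, 1 of 4 was called higher in library 2 (Lama1, at 2.32) and none in library 1. Of the other beta and gamma chains, both that were compared were called higher in library 2, Lamc3 at 3.29 and Lamb3 at 5.84. Lamb3 rested on 1 count in library 1 against 111 in library 2, with a counting interval of 3.83 to 11.65.
Among 18 genes listed as linkers, proteoglycans and associated proteins, 7 were higher in library 2 (36.9% of all genes). Of the rest, 2 were higher in library 1 (26.1%) and 9 were not called. The most abundant were Tinag, a tubular basement membrane protein, with 102 and 104 TPM, Npnt, an integrin ligand, with 69.6 and 134 TPM, and Sparc, a collagen-binding protein, with 23.8 and 91.0 TPM. Hmcn1 was under TPM 1 in both libraries, at 0.09 and 0.89 TPM.

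Of 16 compared cell surface receptors of collagen IV and laminin, 9 were higher in library 2 (36.9% of all genes), 4 were higher in library 1 (26.1% of all genes) and 3 were not called. The most abundant were Rpsa, a ribosomal protein also known as a laminin receptor, with many processed pseudogenes that can share its reads, with 13.6 and 363 TPM, Sdc4, a syndecan, with 66.4 and 185 TPM, and Itgb1, the beta1 integrin subunit, with 111 and 109 TPM. Itga2 was under TPM 1 in both libraries, at 0.18 and 0.23 TPM. Itgb1, the common partner of the collagen and laminin integrins, had nearly equal TPM in both, with a log2 count ratio of -1.39.
Of 23 compared genes that fold, modify or crosslink collagen IV, 13 were higher in library 2 (36.9% of all genes), 4 were higher in library 1 (26.1%) and 6 were not called. Hsp90b1, a chaperone of the endoplasmic reticulum, had 337 and 243 TPM, P4hb, a subunit of prolyl hydroxylase, 59.4 and 313 TPM, and Ppib, a prolyl isomerase, 49.5 and 297 TPM. P4ha3 had 0.04 and 0.07 TPM.

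Of 13 compared genes of collagen IV and laminin turnover, 4 were higher in library 2, a share near the 36.9% of all genes, 2 were higher in library 1 (26.1% of all genes) and 7 were not called. Timp3, a matrix-bound protease inhibitor, had 490 and 537 TPM, the protease Mep1a 244 and 531 TPM, and the lysosomal protease Ctsl 98.6 and 382 TPM. Mmp3 had 0.24 and 0.49 TPM, Mmp7 0.04 and 0.14 TPM, Mmp9 0.10 and 0.20 TPM, and Timp1 was listed at 0 in library 1 and had 0.57 TPM in library 2. The collagen IV chains had a median ratio of 0.57 with 2 of 6 called higher in library 2, a share near the 36.9% of all genes. For the laminin chains the median was 3.40 with 3 of 4 called higher in library 2. Their median GC content was 55.9%, against 52.4% for the collagen IV chains.

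**Figure D5:**
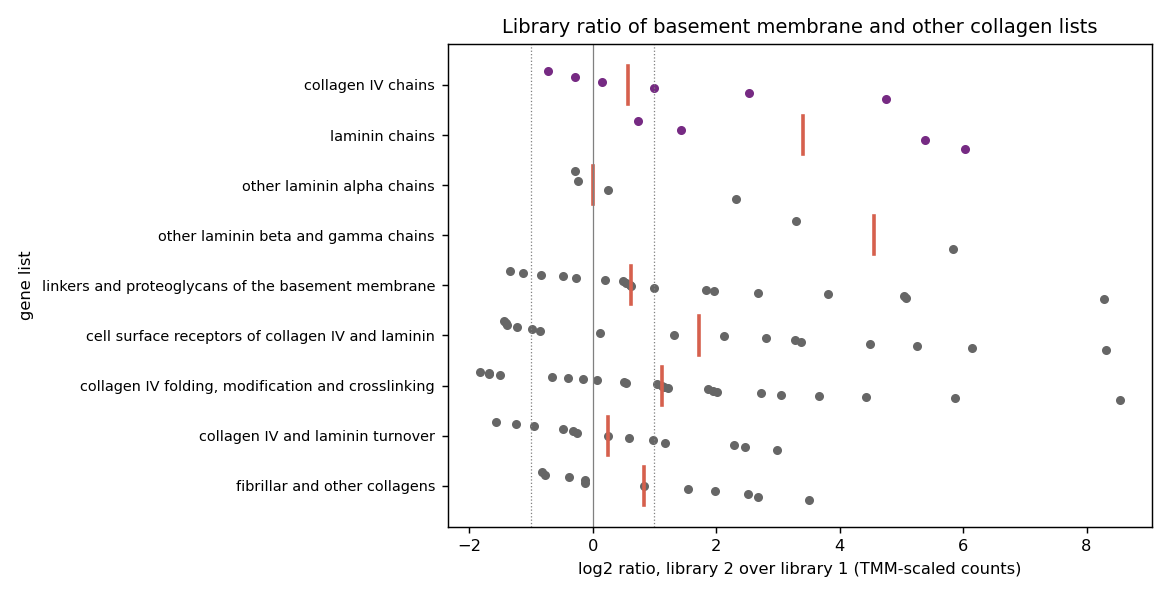
Log2 ratio of library 2 over library 1 on TMM-scaled counts for each gene (points) of the collagen IV and laminin chains (purple) and of the other gene lists (grey), with a red bar at each list's median and dotted lines at 2-fold. The medians are 0.57 for the collagen IV chains and 3.40 for the laminin chains, at median GC contents of 52.4% and 55.9%.

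Little of any chain's sequence was shared with another annotated gene. The overlapping antisense gene C430014B12Rik shares 563 exon bases with Col4a3, and the files list it at 8 and 6 counts. Gm15419 shares 43 exon bases with Col4a2 and was listed at 0 in both libraries. The use of strand in counting, not given in the sources used here, could not be checked, so reads from these overlaps cannot be told apart by strand.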

How the data were processed

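Kidney RNA from 1 mouse was measured in 2 polyA libraries, technical replicates 1 and 2 of 1 sample. The deposited tables give genes and transcripts of annotation release M4 on mm10. Aligner, quantifier and versions were not given in the sources used here. Expected counts, per the file headers, are estimated reads deposited with no normalization. TPM values, which divide counts by effective length and sum alike in every library, were deposited too. Isoform shares were deposited as a percent of the gene's TPM, per the file headers, with credibility bounds of TPM, their level not given in the sources used here. Rows that name no annotated gene (26345) summed to 0 counts and were left out.

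Symbols matched 42462 of 43346 rows (98%) through GENCODE M21, which also gave positions, lengths and coding sequences. Levels are given per library with mean and SD. Library ratios used rounded expected counts, TMM scaling (edgeR 4.0.16, R 4.3.3) on genes that had 10 or more counts over both libraries, a prior count of 0.5, and exact (Clopper-Pearson) 95% intervals (scipy 1.17.1). A 2-fold ratio was a call. With 1 library on each side no quasi-likelihood model could be fitted, and no test was run. Intervals cover counting error only. The trend with GC content was fitted by lowess, span 20% (statsmodels 0.14.6), over genes with at least 100 counts and a GC value. Of the 15553 genes compared, 95.2% had a GC value. GC content was that of the transcript with most counts among those whose length lay within 10% of the reference. Shared sequence was searched with blastn 2.17.0 at 95% identity. The ratio calculation was checked on simulated counts. That simulation left most genes unchanged and held no GC trend, unlike these libraries, so it does not check the scaling used here.

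The 10 genes, the gene lists and the settings were chosen with earlier results of these data known. Named were all 10 chains, the other laminin chains, and of each list the 3 genes of highest mean TPM and each gene under TPM 1 in both libraries. The transcript of highest mean isoform share of each chain was named, with any other at 10% or more in either library. Fibrillar and other collagens form the last list. Some items that these rules select are not reported here. Settings tried were DESeq2 1.42.0 size factors, library totals with and without mitochondrial genes, no minimum count or one of 100, a prior count of 5, intervals wholly past 2-fold, the GC trend removed, TPM without mitochondrial genes and copies, TPM thresholds of 0.5 and 2, posterior means, and 1 library left out.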

Additional observations from a re-analysis of the deposited data

How the results depend on the processing

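With the GC trend removed, Col4a1 and Col4a2 reversed to log2 ratios of -1.31 and -0.43, Lamb1 and Col4a6, neither called, changed sign to -0.38 and -0.62, the chains called higher in library 2 went from 5 to 1 and those called higher in library 1 from 0 to 2, and over all genes 2143 and 1854 were called higher in library 2 and library 1, against 5733 and 4061. The cause was not tested. With library totals in place of TMM, 8 chains were higher in library 2, 847 genes were higher in library 1, and 90.2% of called genes were higher in library 2, against 58.5% with TMM. The other scalings, filters, prior counts and interval rule gave 5 or 6 chains higher in library 2 and 0 in library 1.

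With all counts on the longest transcript, chosen after the data were seen, the mean Col4a5 to Col4a3 ratio was 0.157. Without mitochondrial genes and copies in the sum, the mean TPM of 6 chains moved by more than its SD, to 123 for Col4a3, 64.8 for Col4a4, 27.0 for Col4a5, 0.901 for Col4a6, 70.9 for Lamb1 and 18.4 for Lamc1. The number of chains at TPM 1 or more in both libraries was between 6 and 9 over its alternatives. With posterior mean isoform shares, the mean TPM share of the longest transcript moved by more than its SD for Col4a1, Col4a2 and Col4a6. It went from 99.7% to 98.6% for Col4a1, from 100% to 87.35% for Col4a2 and from 100% to 77.7% for Col4a6.

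Leaving out 1 library gave ratios of 0.131 to 0.609 for Col4a2 to Col4a1, 0.461 to 0.624 for Col4a4 to Col4a3, 0.205 to 0.240 for Col4a5 to Col4a3, 0.0191 to 0.0525 for Col4a6 to Col4a5, 1.12 to 10.4 for Col4a3 to Col4a1, 0.0732 to 0.454 for Lamb2 to Lamb1, 0.216 to 1.75 for Lama5 to Lamc1, and 3.01 to 5.5 for Lamb1 to Lamc1. Shares ranged from 56.2% to 93.7% for Col4a3, Col4a4 and Col4a5 of collagen IV, 11.1% to 64.7% for Lama5 and 6.78% to 30.4% for Lamb2. No paired analysis was possible because both libraries belong to 1 group. Counts of 21 for Lama5, 23 for Lamb2 and 30 for Col4a6 limit the precision in library 1.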

Other observations

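The fibrillar and other collagens of the interstitium, which were kept apart from the basement membrane lists, were listed at lower levels than Col4a3 and Col4a4 in both libraries. Summed over 11 genes they reached 35.2 TPM in library 1 and 94.1 TPM in library 2, against 68.2 and 203 TPM for the 6 collagen IV chains. The most abundant were Col1a2 with 4.61 and 20.9 TPM, Col3a1 with 11.8 and 12.5 TPM and Col14a1 with 6.63 and 15.4 TPM. In library 1 all of these stood above Col4a1 (3.67 TPM) and Col4a2 (0.48 TPM), and Col3a1 also above Col4a5 (7.85 TPM). In library 2 they stood below Col4a1 and Col4a2, and Col1a2 and Col14a1 stood above Col4a5 (14.7 TPM). Of the 11, 5 were called higher in library 2, where 36.9% of all genes were, 0 in library 1, where 26.1% were, and 6 were not called, with a median log2 ratio of 0.83.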
